A study of Mus musculus with 6 samples.

Results

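The genes described here encode the non-collagen part of the heart's extracellular matrix: adhesive glycoproteins, elastic fibres and their microfibrils, proteoglycans and the basement membrane. A list of 43 genes was taken, and every gene probe on the arrays whose RefSeq accession belonged to a listed symbol was a member. Of the 43 genes, 42 had a probe and 41 could be tested, among 20014 genes and unnamed features tested in all, of which 13186 had a gene symbol. Prelp had no probe here, and both probes of Npnt, the gene of the integrin ligand nephronectin, were not well above background on any of the 6 arrays.

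The mice were C57/B6 and 8 weeks old, and the RNA of each whole heart, labelled with Cy3, was hybridised to its own Agilent array in 1 colour. All 6 mice carried floxed PHD2 and PHD3 alleles. The 3 control hearts had the genotype PHD2/3f/f; Cre-/-, and the 3 KO-labelled hearts had the genotype PHD2/3f/f; Cre+/-. PHD2 and PHD3 are prolyl hydroxylases that, when oxygen is present, mark hypoxia-inducible factors for breakdown. The labels describe each heart as a biological replicate, and give neither the promoter that drove Cre nor the sex of the mice, so the cells in which the alleles were deleted are not known from them. All arrays lay on 1 slide, with control and KO-labelled arrays in separate columns of it, so position on the slide and genotype cannot be told apart.

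Matrix glycoproteins such as fibronectin and periostin connect cells to collagen through integrins, and several of them are made at high levels only in developing or injured hearts. Elastin is laid down on a scaffold of fibrillin microfibrils with the help of fibulins, and gives vessels and valves their recoil. Small leucine-rich proteoglycans bind collagen and set how its fibrils grow, while laminins, nidogens and perlecan form the basement membrane that surrounds each cardiomyocyte. In the adult heart, fibroblasts make most of the interstitial part, and cardiomyocytes, endothelial and mural cells contribute to basement membranes.

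The targeted genes and the array quality set the frame for every value. Egln1, which encodes PHD2, was 2.35-fold lower in the KO-labelled hearts (adjusted p = 0.00652 in limma, Benjamini-Hochberg adjustment), whereas Egln3, which encodes PHD3, was 3.93-fold higher (adjusted p = 0.00165), against its label. Where the Egln3 probes lie relative to the floxed exons is not known. Cardiomyocyte markers such as Myh6 and Tnnt2 were detected on every array, with a mean log2 level of 8.61 to 9.66 over 10 markers. Of the gene probes on each array, 46.3% to 51.0% were well above background and 0 were saturated. Arrays correlated across genes at 0.977 to 0.993 within a group and at 0.921 to 0.970 between groups, and genes are not independent replicates. The number of arrays, 3 in each group, limits the precision of every value.

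Most of the matrix genes were higher in the KO-labelled hearts. Of the 41 tested genes, 31 rose and 0 fell at an adjusted p of 0.05 (limma, Benjamini-Hochberg adjustment over everything tested). The background was high: 39.1% of all genes and features tested passed, 16.1% higher and 23.0% lower. At an unadjusted p of 0.05 the counts were 31 higher and 1 lower. The median log2 difference was 1.399 for these genes and -0.11 for everything tested. Of these genes, 22 rose at least 2-fold (8.03% of all tested), 15 at least 4-fold (2.39%) and 7 at least 8-fold (0.660%). The last count depended on dim control signals: it was 3 (Postn, Cilp and Fn1) among members above background on all 6 arrays and in the deposited value table, and 2 (Postn and Cilp) with normexp background correction, which also left 8 at 4-fold or more. With 1 heart left out it was 4 to 9, and 4 without control replicate 1 or 3. All 3 KO-labelled hearts lay above all 3 controls in 31 genes (22.7% of all tested), and below them in 2 (33.2%). Of the 41 genes, 6 (Cthrc1, Tnc, Spp1, Fbn2, Acan and Frem1) were well above background on all KO-labelled arrays but not on all control arrays. Their entry into the test depended on the KO-labelled hearts, which favours a rise. Among the 35 genes above background on all 6 arrays, 27 rose, against 15.8% of the genes and features filtered in that way. In whole-heart RNA, more cells of a type and more RNA per cell cannot be told apart. For 1 gene, exact permutation of 3 control and 3 KO-labelled hearts has a smallest p of 0.1, and the calls therefore use limma's variance shared across genes.

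**Figure D1:**
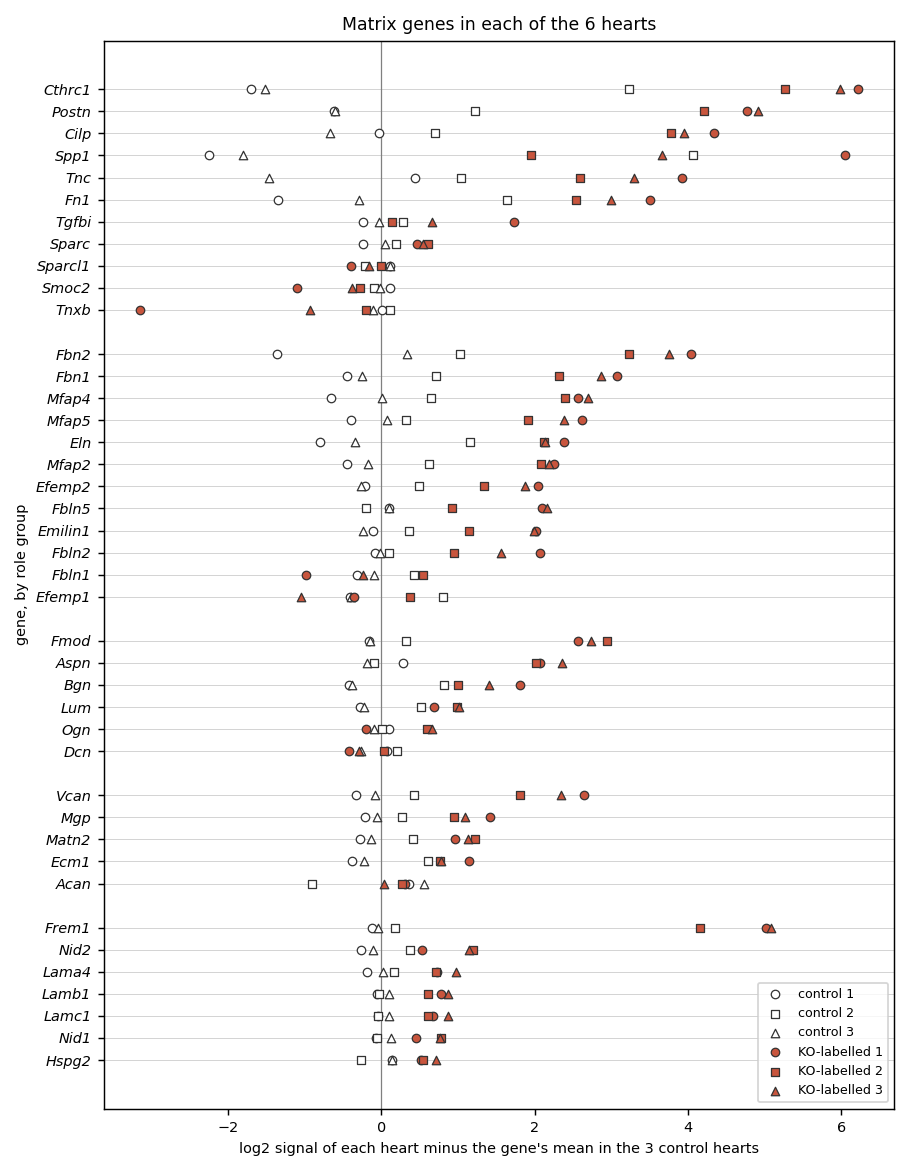
Each row is 1 of the 41 tested genes and each symbol 1 heart, plotted as its log2 signal minus that gene's mean in the 3 control hearts (open symbols, control; filled, KO-labelled; shapes give the replicate number). The filled symbols lie to the right of the open ones in 31 genes, and control replicate 2, the open square, was the highest control in 31.

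The regulatory sequence near the start sites was available for part of the genes, and is shown because the 2 targeted enzymes act on hypoxia-inducible factors, which bind a short core that reads ACGTG or GCGTG. Of the 43 genes, 28 had at least 1 promoter window in the RefSeq table (GRCm38.p6, 250 bases before to 50 after a start). On either strand, ACGTG was found in 3 of these 28 genes (10.7%), against 21.8% of all 27025 genes in the table. GCGTG was found in 15 of 28 (53.6%), against 35.2% of all genes. Among the 19 raised genes with a window, 9 held GCGTG and 2 held ACGTG, so members that were not raised also held these letters. ACGTG also forms part of the E-box CACGTG, so some matches overlap that motif. The genes with ACGTG, and the raised genes with 2 or more GCGTG before 1 start, are shown from 5′ to 3′ on the gene's strand, with the matches in capitals. A match on the opposite strand reads CACGT or CACGC.

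Aspn, chr13:49544297-49544331, plus strand, 146 to 112 bases before the start:
Aspn: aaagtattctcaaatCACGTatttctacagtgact
Efemp2, chr19:5473822-5473856, plus strand, 124 to 90 bases before the start:
Efemp2: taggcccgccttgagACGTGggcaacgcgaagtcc
Fbln1, chr15:85205853-85205916, plus strand, 96 to 33 bases before the start:
Fbln1: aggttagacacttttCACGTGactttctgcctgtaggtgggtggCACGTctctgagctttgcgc
Frem1, chr4:83052207-83052255, minus strand, 89 to 41 bases before the start:
Frem1: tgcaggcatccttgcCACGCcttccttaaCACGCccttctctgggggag
Fbln5, chr12:101819161-101819321, minus strand, 202 to 42 bases before the start:
Fbln5: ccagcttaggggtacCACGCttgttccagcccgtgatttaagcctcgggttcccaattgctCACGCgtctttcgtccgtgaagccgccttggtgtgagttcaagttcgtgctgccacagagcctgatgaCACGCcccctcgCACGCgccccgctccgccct
Hspg2, chr4:137468571-137468742, plus strand, 232 to 61 bases before the start:
Hspg2: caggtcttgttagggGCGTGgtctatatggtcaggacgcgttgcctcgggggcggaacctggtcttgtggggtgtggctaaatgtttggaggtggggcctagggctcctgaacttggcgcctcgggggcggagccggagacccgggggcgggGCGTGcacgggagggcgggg

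Of the genes shown, Aspn, Efemp2, Frem1, Fbln5 and Hspg2 rose, and Fbln1, which holds 3 of the 5 ACGTG matches printed, did not pass the test. Other motifs were as follows. The AP-1 site TGANTCA was in 3 of 28 genes (8.97% of all genes), the TEAD site CATTCC in 4 (16.6%), the nuclear receptor motif AGGTCA in 7 (18.1%) and TATAAA in 6 (15.7%). A match describes these letters only, and says nothing of binding.

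Adhesive and matricellular glycoproteins included Postn and Cilp, which rose at least 8-fold under each alternative, Cthrc1, whose measured difference was the largest of the members, and several genes with a wide spread between control hearts. Of the 11 tested, 6 rose, 0 fell and 5 did not pass. For this and the following groups, the share over everything tested was 16.1% higher and 23.0% lower. All levels given here are log2 signals relative to the array's 75th percentile. Cthrc1, a secreted protein of remodelling tissue, measured -5.47, -0.53 and -5.29 in control hearts 1 to 3 and 2.46, 1.49 and 2.22 in KO-labelled hearts 1 to 3. Groups did not overlap, although control replicate 2 stood far above the other 2 controls, and it was the only control array on which the probe was well above background. Cthrc1 thus entered the test only through the KO-labelled arrays, so its call and rank are not independent of the filter. The log2 difference was 5.82 ± 1.28 SE (adjusted p = 0.0148 in limma), the 4th largest of all features tested. It was 2.95 with the normexp background correction and 2.63 in the deposited value table, and in both Postn had the largest difference instead. Leaving out control replicate 2 gave 7.44, and without control replicate 1 or 3 the gene did not pass, at 4.97 and 5.06 (adjusted p up to 0.0519).

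Postn encodes periostin, a secreted protein of activated fibroblasts and developing valves. Its control hearts measured 0.51, 2.36 and 0.53 and its KO-labelled hearts 5.90, 5.35 and 6.05. The log2 difference was 4.63 ± 0.51 SE, or 24.8-fold (adjusted p = 0.00266 in limma). Again control replicate 2 was the high control, and without it the difference was 5.25. Cilp, a matrix protein first described in cartilage and made by cardiac fibroblasts, had -0.24, 0.50 and -0.87 in controls and 4.13, 3.57 and 3.74 in KO-labelled hearts. The groups lay far apart, with a log2 difference of 4.02 ± 0.35 SE, or 16.2-fold (adjusted p = 0.00176). With normexp it was 3.43.

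Fibronectin and tenascin-C, ligands of integrins, rose with more variable controls. Fn1 had control values of 3.08, 6.06 and 4.13 and KO-labelled values of 7.93, 6.96 and 7.41, a log2 difference of 3.01 ± 0.72 SE (adjusted p = 0.0191 in limma). Control replicate 2 came nearest to the KO-labelled hearts, without overlap. The call was lost without control replicate 3, without KO-labelled replicate 1 or 3, when dim probes were not filtered, and when the replicate number was a block (adjusted p up to 0.0649 over all alternatives). Its difference was 2.34 without control replicate 1 and 3.83 without control replicate 2. Tnc had -3.35, -2.75 and -5.25 in controls, of which 1 array was well above background, and 0.15, -1.19 and -0.49 in KO-labelled hearts. Tnc too entered the test only through the KO-labelled arrays. Its log2 difference was 3.27 ± 0.67 SE (adjusted p = 0.0116), but 1.07 with normexp, 1.81 in the deposited table and 2.54 without control replicate 3. A second Tnc probe, above background on 1 control and 2 KO-labelled arrays, lay 1.65 higher.

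Sparc, a collagen-binding glycoprotein, rose by less: it measured 9.08, 9.51 and 9.36 in controls and 9.77, 9.92 and 9.86 in KO-labelled hearts (log2 difference 0.53 ± 0.15 SE, adjusted p = 0.0284 in limma). Its other probe differed by 1.81 (adjusted p = 0.00524 with each probe as its own feature), so the size of this rise depended on the probe. The call on the first probe was lost without control replicate 1 or 3 and without KO-labelled replicate 2 or 3. It was also lost when dim probes were not filtered and with the replicate block (adjusted p up to 0.1002 over the alternatives).

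Spp1 encodes osteopontin, which macrophages also secrete. Control replicate 2 (1.00) lay above 2 of the KO-labelled hearts, whose values were 2.98, -1.11 and 0.59, while the other controls had -5.32 and -4.87. The gene did not pass (log2 difference 3.88, 95% interval -0.50 to 8.27, adjusted p = 0.134 in limma), and passed without control replicate 2 (5.91, adjusted p = 0.0153) and with array weights (5.21, adjusted p = 0.00152). Tgfbi, an integrin-binding protein induced by TGF-beta, had a difference of 0.85 (adjusted p = 0.132), with KO-labelled replicate 1 at 5.57 and the other hearts between 3.59 and 4.50. Leaving out KO-labelled replicate 2 gave 1.198 (adjusted p = 0.0421), and array weights gave 0.76 (adjusted p = 0.0108), both of which passed in limma.

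Tnxb, the tenascin of loose connective tissue, ran the other way in 1 heart above all. It measured 3.80, 3.90 and 3.68 in controls and 0.64, 3.59 and 2.86 in KO-labelled hearts. The KO-labelled hearts all lay below the controls, yet the difference of -1.43 did not pass (95% interval -3.10 to 0.24, adjusted p = 0.144 in limma). With array weights it was -0.91 and passed (adjusted p = 0.0420). Leaving out KO-labelled replicate 1 gave -0.57, whereas leaving out KO-labelled replicate 2 gave -2.04, which passed (adjusted p = 0.0469). Smoc2, a calcium-binding matricellular protein, also lay lower in all 3 KO-labelled hearts (difference -0.59, unadjusted p = 0.0405, adjusted p = 0.0846). With array weights its difference was -0.42, which passed in limma (adjusted p = 0.0171). Sparcl1, a relative of Sparc, had a difference of -0.19 (adjusted p = 0.374) whose sign turned with cyclic loess (0.02) and spike-in scaling (0.03).

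**Figure D2:**
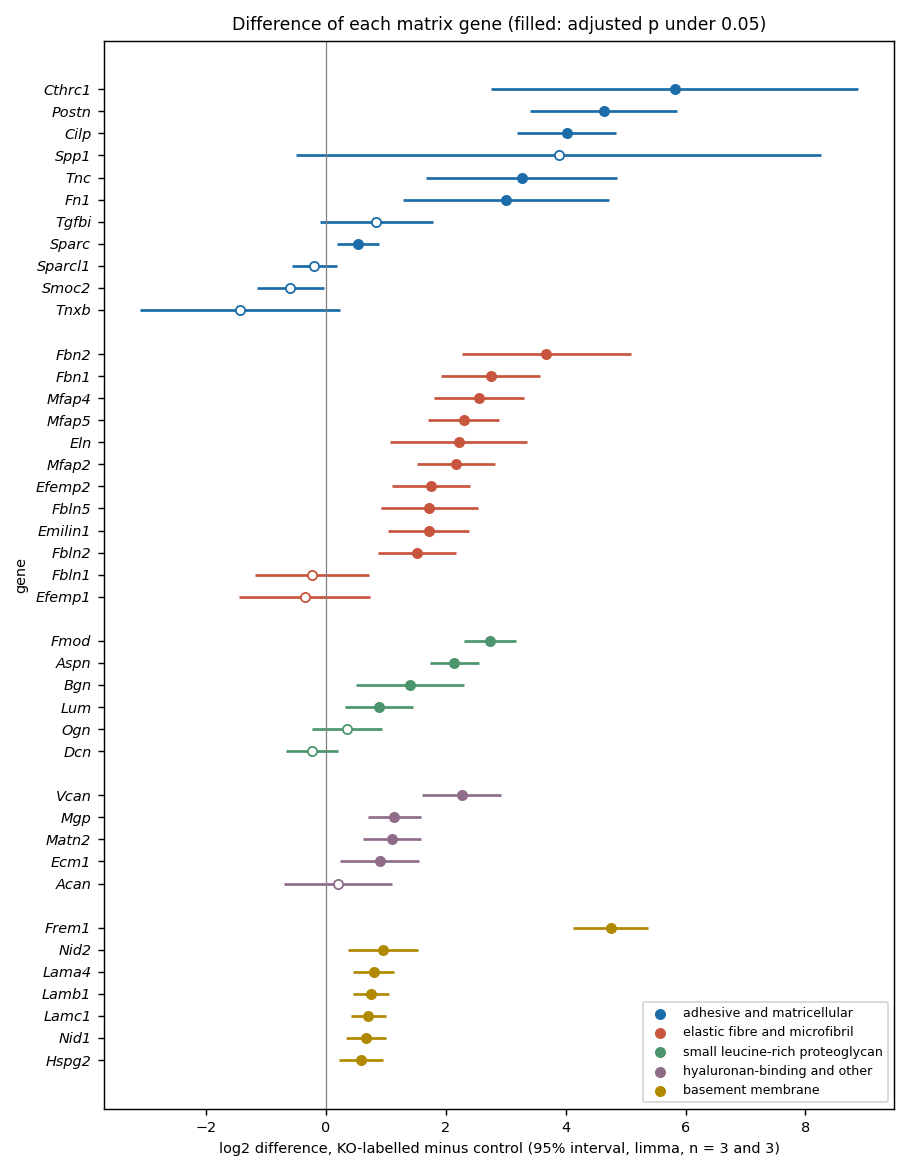
Log2 difference of each gene, KO-labelled minus control hearts, with its 95% interval from limma (n = 3 and 3), coloured by role group. Filled points passed an adjusted p of 0.05. All 7 tested basement membrane genes and 10 of 12 elastic fibre genes are filled, and the widest intervals belong to Spp1 and Cthrc1.

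Elastic fibre and microfibril genes rose as a broad group. Of 12 tested, 10 rose, all of them at least 2-fold, 0 fell and 2 did not pass. The fibrillins form the microfibrils. Fbn1 measured 0.96, 2.13 and 1.17 in controls and 4.50, 3.74 and 4.29 in KO-labelled hearts. It was 6.74-fold higher (log2 difference 2.75 ± 0.34 SE, adjusted p = 0.0034 in limma). Fbn2, the fibrillin typical of fetal tissue, had -5.06, -2.68 and -3.38 in controls and 0.34, -0.47 and 0.05 in KO-labelled hearts. Its probe was well above background on 1 control array, and entered the test only through the KO-labelled arrays. The log2 difference of 3.68 ± 0.59 SE (adjusted p = 0.00589) became 1.42 with normexp, 2.72 in the deposited table and 3.00 without control replicate 1, and the second Fbn2 probe differed by 2.50.

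Eln, the gene of elastin itself, measured -2.17, -0.21 and -1.71 in controls and 1.02, 0.76 and 0.77 in KO-labelled hearts. The 4.64-fold rise passed (log2 difference 2.22 ± 0.48 SE, adjusted p = 0.0136 in limma), with 1.51 under normexp and an adjusted p of 0.0517, so no call, without control replicate 3. Its KO-labelled hearts were closely grouped, and the spread lay in the controls.

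Genes of microfibril-associated proteins also rose. Mfap2 (MAGP1) had 1.09, 2.16 and 1.36 in controls against 3.78, 3.61 and 3.72 in KO-labelled hearts, a log2 difference of 2.17. Mfap4, an elastin and collagen binding protein, had 3.85, 5.15 and 4.52 against 7.06, 6.90 and 7.20, a difference of 2.55. Mfap5 (MAGP2) had 3.86, 4.58 and 4.33 against 6.87, 6.17 and 6.63, a difference of 2.30. A second Mfap2 probe, above background on all 6 arrays, differed by 1.44. These 3 genes had adjusted p of 0.00339, 0.00326 and 0.00254 in limma, and in each the gap between the groups was wider than the range within either. Emilin1, an elastin-microfibril interface protein, rose with them (-0.997, -0.53 and -1.13 against 1.13, 0.26 and 1.11; log2 difference 1.72, adjusted p = 0.00621).

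Fibulins guide elastin onto microfibrils, and 3 of the 5 tested rose. Fbln5, needed for elastic fibre assembly, measured 3.11, 2.80 and 3.11 in controls and 5.10, 3.93 and 5.16 in KO-labelled hearts (log2 difference 1.73, adjusted p = 0.0102 in limma). Efemp2 (fibulin-4), which brings lysyl oxidase to elastin, measured 3.09, 3.80 and 3.04 against 5.36, 4.65 and 5.19 (difference 1.75, adjusted p = 0.0053). Fbln2, found in valves and vessel walls, had 4.34, 4.51 and 4.41 against 6.49, 5.37 and 5.98 (difference 1.52, adjusted p = 0.00798). In all 3, KO-labelled replicate 2 was the lowest of its group. The other 2 did not pass: Fbln1 had -0.23 (95% interval -1.17 to 0.72, adjusted p = 0.673) and Efemp1 (fibulin-3) -0.35 (95% interval -1.44 to 0.75, adjusted p = 0.57). Both Fbln1 probes lay lower, by 0.23 and 0.60 on the log2 scale, and their KO-labelled hearts overlapped the controls.

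Of the 6 small leucine-rich proteoglycan genes tested, 4 rose, 0 fell and 2 did not pass. Fmod, the collagen-binding fibromodulin, measured -1.65, -1.16 and -1.64 in controls and 1.08, 1.46 and 1.25 in KO-labelled hearts. It was 6.70-fold higher (log2 difference 2.74 ± 0.18 SE, adjusted p = 0.00125 in limma). With normexp its difference was 1.78. Aspn, which encodes asporin, a relative of decorin that binds TGF-beta, had 0.25, -0.12 and -0.22 against 2.04, 1.98 and 2.32, or 4.42-fold more (difference 2.14 ± 0.17 SE, adjusted p = 0.00143). Both had narrow spreads in each group, and in Aspn control replicate 2 was not the highest control.

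Bgn (biglycan) measured 1.90, 3.14 and 1.94 in controls and 4.13, 3.32 and 3.73 in KO-labelled hearts, a 2.64-fold rise with an SE of 0.38 on the log2 scale (adjusted p = 0.0276 in limma). Control replicate 2 lay just below the lowest KO-labelled heart, and the call was lost without control replicate 1 or 3, without KO-labelled replicate 1 or 3, when dim probes were not filtered, and under the replicate block (adjusted p up to 0.0924 over the alternatives). Lum, the gene of lumican, rose by 0.89 on the log2 scale (adjusted p = 0.0268). Its call was lost without control replicate 1 or 3, KO-labelled replicate 2 or 3, or the dim-probe filter (adjusted p up to 0.0915). Dcn, which encodes decorin, the best-known fibroblast proteoglycan, measured 8.37, 8.50 and 8.03 against 7.87, 8.33 and 8.01. These hearts overlapped, and the difference of -0.23 had a 95% interval of -0.67 to 0.21 (adjusted p = 0.352). Ogn (osteoglycin) had 0.35, with an interval of -0.23 to 0.93 (adjusted p = 0.280). Ogn passed without KO-labelled replicate 1 and with array weights.

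Of 5 hyaluronan-binding, cartilage-type and other matrix proteins, 4 rose and 1 did not pass. Vcan, the gene of the hyaluronan-binding proteoglycan versican of provisional matrix, measured -0.83, -0.07 and -0.58 in controls and 2.15, 1.31 and 1.84 in KO-labelled hearts (log2 difference 2.26 ± 0.28 SE, adjusted p = 0.00322 in limma). A probe for another Vcan transcript differed by 1.99, and 1 more probe was not well above background on any array. Mgp, an inhibitor of calcification, had 6.97, 7.46 and 7.13 against 8.60, 8.13 and 8.27 (difference 1.15, adjusted p = 0.00598). Matn2, an adaptor between matrix filaments, had 2.20, 2.88 and 2.33 against 3.43, 3.69 and 3.60 (difference 1.1, or 2.15-fold, adjusted p = 0.00824).

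Ecm1, a secreted glycoprotein, rose by 0.90 with an adjusted p of 0.0422 in limma, close to the threshold. It was not called under 12 of the 21 alternatives (adjusted p up to 0.129), among them a threshold of 0.01 and leaving out any heart other than control replicate 2, and its second probe did not pass (0.61, adjusted p = 0.238). Acan, the cartilage proteoglycan aggrecan, did not pass (0.21, 95% interval -0.69 to 1.105, adjusted p = 0.688). Its hearts ranged from -3.91 to -2.45, and 2 of 3 control arrays were well above background.

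Basement membrane genes rose in a narrow band, apart from Frem1. All 7 tested rose, and 6 of them by 0.59 to 0.95 on the log2 scale. Frem1, a large protein of epithelial and embryonic basement membranes, measured -5.36, -5.05 and -5.28 in controls, on none of which arrays it was well above background, and -0.22, -1.07 and -0.15 in KO-labelled hearts. Its mean was -5.23 in controls and -0.48 in KO-labelled hearts. With each control signal raised to a floor, the array's lowest signal among probes above background, the KO-labelled mean was 10.9-fold higher. That floor is the lowest that the flags of the array allow, so this fold is not a lower bound on the rise. The adjusted p of 0.00124 in limma belongs to the measured difference of 4.75, which rests on control signals below background, and not to this fold. The gene entered the test only through the KO-labelled arrays, which favours a rise, so its call is not independent of the filter. With normexp, which adds an offset and shrinks differences of dim probes, the log2 difference was 1.29.

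Nid2, 1 of the nidogens that link laminin to type IV collagen, measured 0.53, 1.17 and 0.69 in controls and 1.32, 1.98 and 1.93 in KO-labelled hearts (log2 difference 0.95 ± 0.25 SE, adjusted p = 0.0241 in limma). Nid1 differed by 0.66 (adjusted p = 0.0126), with 0.47 and 0.49 at its other 2 probes. With each probe as its own feature, the first of these did not pass and the second did (adjusted p = 0.0797 and 0.0442 in limma). The laminin chains Lama4, Lamb1 and Lamc1, which together make laminin-411 of vessels and muscle, rose by 0.80, 0.75 and 0.71 (adjusted p = 0.00787, 0.00614 and 0.00714). The 3 chains passed at 0.05 under every alternative, with differences between 0.64 and 1.02. Hspg2, which encodes perlecan, rose by 0.59 at 1 probe and 0.69 at the other (adjusted p = 0.0254 for the first). Without control replicate 1, and also without a filter on dim probes, Nid1, Nid2 and Hspg2 were not called. Without control replicate 3 or KO-labelled replicate 3, Nid2 and Hspg2 were not called. Nid2 was also not called without KO-labelled replicate 2, nor Hspg2 with the replicate block.

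**Figure D3:**
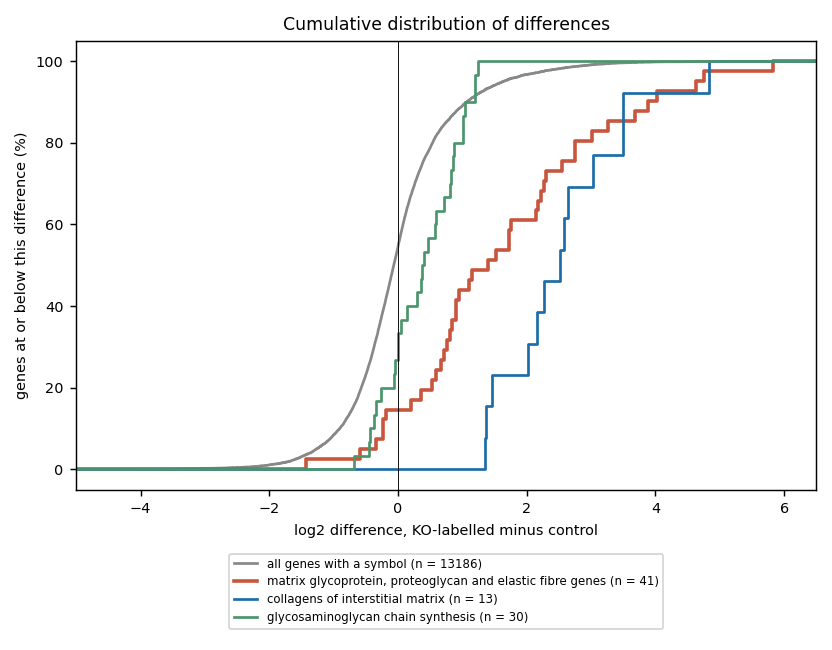
Cumulative distribution of log2 differences, KO-labelled minus control, for 13186 genes with a symbol, the 41 matrix genes, 13 collagens and 30 genes of glycosaminoglycan synthesis. The matrix genes lie to the right of all genes, with a median of 1.399, and the collagens further right, with a median of 2.51.

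Hearts of 1 group differed in these genes in a regular way. Control replicate 2 was the highest control in 31 of the 41 genes, whereas it was the highest control in 24.8% of all genes and features tested. It was the lowest control in 5 of the 41 genes and in 59.2% of all. Before scaling, its 75th percentile signal was 201, against 147 and 148 in control replicates 1 and 3. The KO-labelled arrays ran from 187 to 235, and the part of this brightness in the order of hearts was not tested. Control replicate 1 was the lowest in 28 of 41 (20.8% of all). Relative to the control mean, the median of the 41 genes was -0.22, 0.35 and -0.11 in control replicates 1 to 3 and 1.803, 0.99 and 1.401 in KO-labelled replicates 1 to 3. All 3 KO-labelled medians thus lay above the highest control, with KO-labelled replicate 2 nearest to it. It was the lowest KO-labelled heart in 26 of 41 genes (40.5% of all). By their medians, the 7 basement membrane genes did not share this order. These were -0.07, -0.04 and 0.09 in control replicates 1 to 3 and 0.67, 0.71 and 0.87 in KO-labelled replicates 1 to 3. Gene by gene they were mixed: control replicate 2 was the highest control in 3 of 7 (24.8% of all). KO-labelled replicate 2 was the lowest of its group in Lama4, Lamb1, Lamc1 and Frem1, and KO-labelled replicate 1 in Nid1, Nid2 and Hspg2. Within groups the genes varied more than others, with a median SD of 0.36 in controls and 0.37 in KO-labelled hearts, against 0.18 and 0.19 over everything tested.

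Partner genes of the same pathways, from lists chosen with earlier results of these data known, moved to different extents. Beside each list count stands the share over everything tested, 16.1% higher and 23.0% lower. Of 13 tested interstitial collagens, all 13 rose, with Col8a2 (28.3-fold), Col8a1 (11.3-fold), Col11a1 and Col5a1 (4.79-fold) having the smallest p. Col11a1 was well above background on 0 control arrays (mean -5.79 in control and -2.29 in KO-labelled hearts). It was 3.11-fold higher with its control signals raised to the floor used for Frem1, which is not a lower bound. Col8a2 was above background on 2 of 3 control arrays. Among 15 partners of elastic fibre assembly, 8 rose, Emilin2 fell (-0.59) and 6 did not pass. Lox, counted among the 8, was above background on 1 of 3 control arrays. The rises included the latent TGF-beta binding protein Ltbp2 (log2 difference 5.08), the microfibril-binding Adamtsl2 (1.82) and the lysyl oxidases Loxl3 (3.17) and Loxl1 (1.88), which crosslink elastin.

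Of 30 tested enzymes that build glycosaminoglycan chains, 12 rose, 1 fell and 17 did not pass, with a median of 0.38. Dse, counted among the 12, was well above background on 0 control arrays and entered the test only through the KO-labelled arrays. Those with the smallest p were Chpf (1.05) and Chpf2 (1.20) of chondroitin chain polymerisation, the dermatan sulphate epimerase-like Dsel (1.19) and Papss1 (1.01), which makes the sulphate donor. The enzyme that fell was Hs2st1 (-0.68). Of 26 receptors for matrix glycoproteins, 12 rose and 4 fell. The collagen-binding integrin gene Itga11 (2.14), the fibronectin receptor gene Itga4 (1.52), Itgb5 (1.07) and Hmmr (0.90) were higher, and Itgb6 (-1.74), Lyve1 (-1.18), Dag1 (-0.49) and Bcam (-0.37) lower.

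Other matrix glycoproteins and basement membrane chains were mixed. Of 25 other glycoproteins and proteoglycans, 12 rose, with Thbs4 (4.27), Srpx2 (2.22) and Fndc1 (2.22) having the smallest p, and the vitronectin gene Vtn fell (-1.46). Of 13 other laminin and basement membrane genes, 5 rose, 1 fell and 7 did not pass. The rises with the smallest p were in collagen genes, Col15a1 (1.93), Col4a1 (1.58), Col4a2 (1.23) and Col18a1 (1.18), and the fall in Lamb3 (-1.52). Genes of these lists that lay outside the naming rule (Emilin2, Lox, Dse, Hs2st1, Itgb6, Lyve1, Dag1, Bcam and Lamb3) were named after their values were seen.

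Marker genes of the cells that make matrix also moved, beside shares of 16.1% higher and 23.0% lower over everything tested. Of 11 tested fibroblast markers, 6 rose, 1 fell and 4 did not pass. The rises of Col1a1 (2.64), Col1a2 (2.02) and Col3a1 (2.16) were already counted above among the interstitial collagens. Meox1, a factor of activated fibroblasts, rose by 2.84, Thy1 by 1.31 and the fibroblast factor Tcf21 by 0.99, and Gsn fell by 1.66 on the log2 scale. The receptor genes Pdgfra (0.33, adjusted p = 0.135 in limma) and Ddr2 (0.08, adjusted p = 0.728) did not pass. The mean log2 level of the 11 markers, Col1a1, Col1a2 and Col3a1 included, was 3.40 to 4.17 in control and 4.63 to 4.73 in KO-labelled hearts. Of 10 cardiomyocyte markers, 7 fell, with Tnni3 at -1.57 and Ryr2 at -0.83, and the mean level ran from 9.23 to 9.66 in control and from 8.61 to 8.97 in KO-labelled hearts.

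Of 9 macrophage markers, 5 rose, including Adgre1 (1.88) and Fcgr1 (1.86), and 2 fell, Cd163 (-0.95) and Itgam (-0.51). The mean level of the 9 was 2.11 to 2.83 in control and 2.85 to 3.58 in KO-labelled hearts. Endothelial markers gave 0 calls among 10 in limma, with 0 higher and 2 lower at an unadjusted p of 0.05, and mean levels of 2.97 to 3.16 and 2.71 to 3.06. Of 7 smooth muscle markers, 3 rose, with Cnn1 at 3.06 and Tagln at 1.42, and Myh11 fell (-0.75). Of 6 pericyte markers 1 rose and 3 fell, with Abcc9 at -1.91 and Kcnj8 at -1.40. Of 4 tested cartilage markers, Col9a2 (4.65), Sox9 (2.70) and Comp (2.01) rose and Chad did not pass, while Col2a1, Col9a1, Matn3 and Hapln1 were not tested for want of signal. Lymphocyte markers had 1 rise of 5 (Cd3d, above background on 1 of 3 control arrays) and erythroid markers 1 fall of 5 (Hba-a2). Of everything tested, 16.1% was higher and 23.0% lower, so both counts lie near that share. The lists for epicardium (0 of 7), neutrophils (0 of 4) and adipocytes (0 of 5) held 0 calls. At an unadjusted p of 0.05 these last 3 lists had 1, 1 and 0 genes. Col1a1, Col1a2, Col3a1, Tcf21, Gsn, Pdgfra, Ddr2, Cd163, Itgam, Comp, Chad and Myh11 were named after their values were seen. The part of these markers in the matrix differences was not tested.

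**Figure D4:**
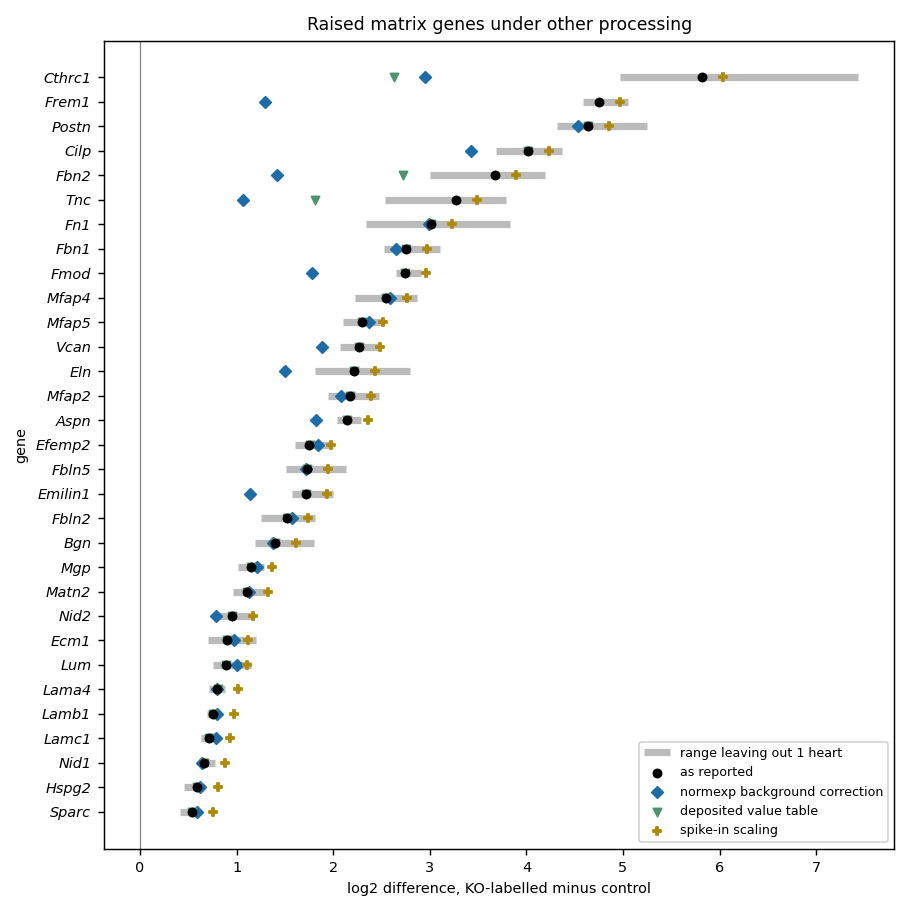
Log2 difference of the 31 raised genes as reported (black), with 1 heart left out (grey range), with normexp background correction, in the deposited value table (hidden where it equals the reported value) and with spike-in scaling. Every value shown is above 0, and normexp lies far to the left for the dim genes Cthrc1, Frem1, Fbn2 and Tnc.

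Of the 31 raised genes, 21 passed an adjusted p of 0.05 under every alternative that measured them. They included Postn, Cilp, Fbn1, the 3 Mfap genes, Fmod, Aspn, Vcan and the laminins. They also included Frem1, Fbn2 and Tnc, which entered the test only through the KO-labelled arrays. The filter for signal above background on all 6 arrays did not measure Frem1, Fbn2 and Tnc. At a threshold of 0.01, 19 of the 31 raised genes passed. The other 10, lost under at least 1 alternative at 0.05, were Bgn, Cthrc1, Ecm1, Eln, Fn1, Hspg2, Lum, Nid1, Nid2 and Sparc. Of these 10, Cthrc1 also entered the test only through the KO-labelled arrays.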

How the data were processed

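Gene expression in 6 hearts, 3 control and 3 KO-labelled, was read from 1 Agilent file for each array. Per the file headers, the deposited intensity values were made by Agilent Feature Extraction 11.0.1.1, which subtracted background, removed spatial trends and set the flags for spots above background, saturated or outlying; no scaling between arrays is recorded. The authors' deposited values are on a log2 scale; R 3.1.3 is among the tools in the submitters' processing notes, and how the authors scaled it is not stated in what was used here. Set against the scanner's log2 values, 94.9% of array-to-array differences matched up to a constant (tolerance 0.001), and 94.2% of rows had a median of 0 within the same tolerance, so direction and log base follow the scanner. Its offsets between arrays lay within 0.00312 of a shift to the 75th percentile, against up to 0.129 for the median, and how its values for dim probes were set stays unknown. Its column medians were 0.09, -0.02 and 0.07 for controls and -0.04, -0.05 and -0.02 for KO-labelled hearts. The labels name both a silica column kit for hearts and a kit for blood with globin removal, a conflict that stands.

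Here, log2 of the processed signal was averaged over a probe's spots without outlier flags, and each array's 75th percentile was subtracted. Of 55681 gene probes, 73 were left out for outlier spots, 26551 were named through RefSeq accessions and 29057 were not. A probe was kept if all 3 arrays of either group showed it well above background, and the brightest kept probe stood for its gene. limma 3.58.1 (with R 4.3.3, and the package data.table in version 1.17.8) was fitted to the whole table, 2-sided, with Benjamini-Hochberg adjustment at 0.05. The fit was also run on simulated data with independent noise and few changed features, a setting unlike these data that does not test the calls made here. Normexp (offset 50) used the median signal, since the mean signal is not among the columns. Same-numbered hearts showed no sign of pairing (correlation of deviations -0.15, -0.12 and -0.08, against -0.17 to 0.26 for hearts with different numbers). The members and lists were chosen with earlier results of these data known. Values in each heart are printed for genes that passed with a log2 difference of at least 1, for genes that fell and for the 2 largest in each role group, and up to 4 genes of each pathway list and 2 of each marker list by p. Named outside this rule are Sparc, Spp1, Tnxb and Dcn, with values in every heart. The precision is limited by 3 arrays in each group.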

Additional observations from a re-analysis of the deposited data

How the results depend on the processing

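Over 21 alternatives, 1 of them (each probe as its own feature) chosen after seeing the data, the number of raised members was 22 to 32 with 1 heart left out, 23 without a filter on dim probes, 26 with the replicate block and 30 to 34 in the others at an adjusted p of 0.05, except that 27 of 35 rose among genes above background on all arrays. At 0.01 it was 19. No member fell, except 3 with array weights (Smoc2, Sparcl1 and Tnxb) and 0 to 1 with 1 heart left out. The members' median ranged from 1.1 to 1.62. The count over all genes and features was 7817 as reported, 4345 without the filter, 13713 with array weights, 4862 with the replicate block, 3106 at 0.01 and 3987 to 8672 with 1 heart left out, where it was 3987 without control replicate 1, 4123 without control replicate 3 and 5142 without KO-labelled replicate 3. The cause of these moves was not tested, other than the added dim probes or the stricter threshold. Of all calls 41.1% were higher as reported, 55.3% under cyclic loess scaling and 57.6% under scaling to 6 spike-in probes; the median of all genes moved by 0.14 and 0.22. Directions turned only in members that did not pass: Acan with normexp (-0.12), the deposited table (-0.18), array weights (-0.34) and with 1 heart left out (-0.25 to 0.48), Dcn with cyclic loess (0.0040), Sparcl1 with cyclic loess (0.0196) and spike-in scaling (0.0299), Efemp1 (-0.71 to 0.0532, and 0.0053 without KO-labelled replicate 3) and Fbln1 (-0.61 to 0.15) with 1 heart left out. Same-numbered hearts did not deviate together, but with 3 hearts in each group this says little about pairing. The calls lost under the block (Bgn, Ecm1, Fn1, Hspg2 and Sparc) were each also lost with at least 1 choice of a single heart left out. Signal near background limits the size of the differences of Cthrc1, Frem1, Fbn2 and Tnc.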
